A study of Mus musculus with 12 samples.

Results

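The 40 genes described here encode the enzymes and transporters of glycolysis and the sensors, transcription factors and targets of the response to low oxygen. They form a list of gene symbols, and all 40 had a row in a deposited expression table of 15720 mouse genes. In the test 38 were used, since Slc2a3 (neuronal glucose transporter GLUT3) and Adm (adrenomedullin) did not reach a mean of 0.5 FPKM, the lowest level tested. Total RNA was sequenced from EMS404, a mouse hepatic stellate cell line of strain C57Bl6, immortalized with SV40 and expressing human TLR4. Cells received a scrambled siRNA or an siRNA against the clock factor Bmal1, and after 48 h were given vehicle or TGFb at 10 ng/mL, for a further 24 h. The 4 groups were therefore scrambled siRNA with vehicle, scrambled siRNA with TGFb, Bmal1 siRNA with vehicle and Bmal1 siRNA with TGFb, each with 3 libraries. All 12 libraries come from this 1 immortalized line and all cells were transfected. The triplicates are described as biological ones without any label that names separate cultures, so p-values measure the spread between these libraries, which may in part be technical.

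Glycolysis splits glucose into pyruvate, and lactate dehydrogenase turns pyruvate into lactate when it is not burnt in mitochondria. Many genes of this route are targets of hypoxia-inducible factor (HIF), whose alpha subunits are hydroxylated by oxygen-dependent prolyl hydroxylases, then bound by the von Hippel-Lindau protein and degraded. When oxygen is low the alpha subunits persist and bind a short DNA core, the hypoxia response element. HIF alpha subunits and BMAL1 belong to the same bHLH-PAS family of transcription factors, and BMAL1 with CLOCK binds the related E-box. In activated stellate cells, raised glycolysis is a known part of the change into matrix-producing myofibroblasts, and hypoxia genes respond to oxygen, growth factors and the density of a culture.

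Values are FPKM, fragments scaled to transcript length and library total, so levels can be set beside each other between genes. Library values are given in the order of replicates 1, 2 and 3. Changes are log2 differences of FPKM + 1, ± SE, from 1 limma fit over all 12 libraries, and a gene was called when its Benjamini-Hochberg adjusted p over 11208 genes was under 0.05. Arntl, the gene for BMAL1, was at 5.43, 5.19 and 4.91 FPKM with scrambled and at 3.9, 3.87 and 3.59 FPKM with Bmal1 siRNA under vehicle. Under TGFb it was at 10.5, 10.8 and 10.9 against 5.05, 4.01 and 4 FPKM. The siRNA groups did not overlap under either treatment, but under vehicle the drop was small, -0.37 on the log2 scale, with an adjusted p of 0.049 that rose above 0.05 when any of 10 of the 12 libraries was left out (0.0226 to 0.21 over all 12). Of 13 stellate and mesenchymal markers 11 had a row, with summed levels of 4790 to 5096 FPKM in the scrambled vehicle and 6861 to 7246 FPKM in the scrambled TGFb libraries. With Bmal1 siRNA these sums were 5138 to 5407 and 6085 to 6442 FPKM. The 11 markers did not all move alike. Under TGFb with scrambled siRNA 4 were called higher and 2 lower, where 16.4% of all tested genes were higher and 29.1% lower. Their changes ran from -1.91 to 2.12. Lrat and Reln, which mark quiescent stellate cells, had no row among those analysed here, and neither had Alb and Ttr of hepatocytes or Ptprc and Adgre1 of leukocytes. Summed levels of 6 cholangiocyte markers moved with TGFb, from 77.39 to 88.87 FPKM under vehicle to 212.3 to 231.3 FPKM under TGFb with scrambled siRNA. With Bmal1 siRNA they were 82 to 93.3 FPKM and 105.3 to 189.4 FPKM. Most of this was Spp1 (osteopontin), at a mean of 70.9 FPKM in the scrambled vehicle and 207 FPKM in the scrambled TGFb group, while Epcam averaged 0.1333 and 0.17 FPKM. The 7 hepatocyte markers with a row summed to 198.9 to 219.6 FPKM in the scrambled vehicle and 70.59 to 93.18 FPKM in the scrambled TGFb libraries. With Bmal1 siRNA they came to 214.5 to 249.8 and 61.74 to 116.5 FPKM. Most of this was Trf (transferrin), and the means of Hnf4a and Cps1 were at or near 0 in every group. Sums of 8 endothelial markers were 80.31 to 84.62 FPKM under vehicle and 105.2 to 111.8 FPKM under TGFb with scrambled siRNA, and 76.26 to 78.43 and 86.59 to 93.69 FPKM with Bmal1 siRNA. Those of 6 leukocyte markers were 11.58 to 13.97 and 8.52 to 10.09 FPKM with scrambled siRNA, and 7.86 to 8.67 and 7.34 to 8.89 FPKM with Bmal1 siRNA. The part of such shifts in the results below was not tested, and in bulk RNA fewer cells expressing a gene cannot be told apart from less RNA per cell.

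The most abundant of the 40 genes were enzymes of glycolysis. Gapdh (glyceraldehyde-3-phosphate dehydrogenase) stood at 5084 ± 199 FPKM (SD, n = 3) in the scrambled vehicle group and Eno1 (enolase 1) at 1216 ± 30.7 FPKM. Each step was carried mainly by 1 isoenzyme gene: Aldoa at 846 ± 7.81 FPKM beside Aldoc at 1.33 ± 0.246 FPKM, and Eno1 beside Eno2 at 10.99 ± 0.363 FPKM (SD, n = 3 each). Of the phosphofructokinase genes, Pfkl stood at 68.96 ± 2.42, Pfkm at 28.3 ± 0.346 and Pfkp at 10.9 ± 0.592 FPKM (SD, n = 3 each). Hexokinase was mostly Hk1, at 28.99 ± 0.783 FPKM, with Hk2 at 6.403 ± 0.64 FPKM. Glucose uptake was represented by Slc2a1 (GLUT1) at 58.9 ± 1.03 FPKM and lactate export by Slc16a3 (MCT4) at 42.7 ± 1.88 FPKM, while Slc2a3 never passed 0.06 FPKM. Of the HIF alpha subunits, Hif1a stood at 58.6 ± 4.7 FPKM and Epas1 (HIF-2 alpha) at 2.63 ± 0.287 FPKM (SD, n = 3 each). Among the targets Ndrg1 was highest, at 94.03 ± 16.1 FPKM, and Car12, a carbonic anhydrase, lowest of those tested at 0.8433 ± 0.0404 FPKM. These ranks refer to group means.

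**Figure D1:**
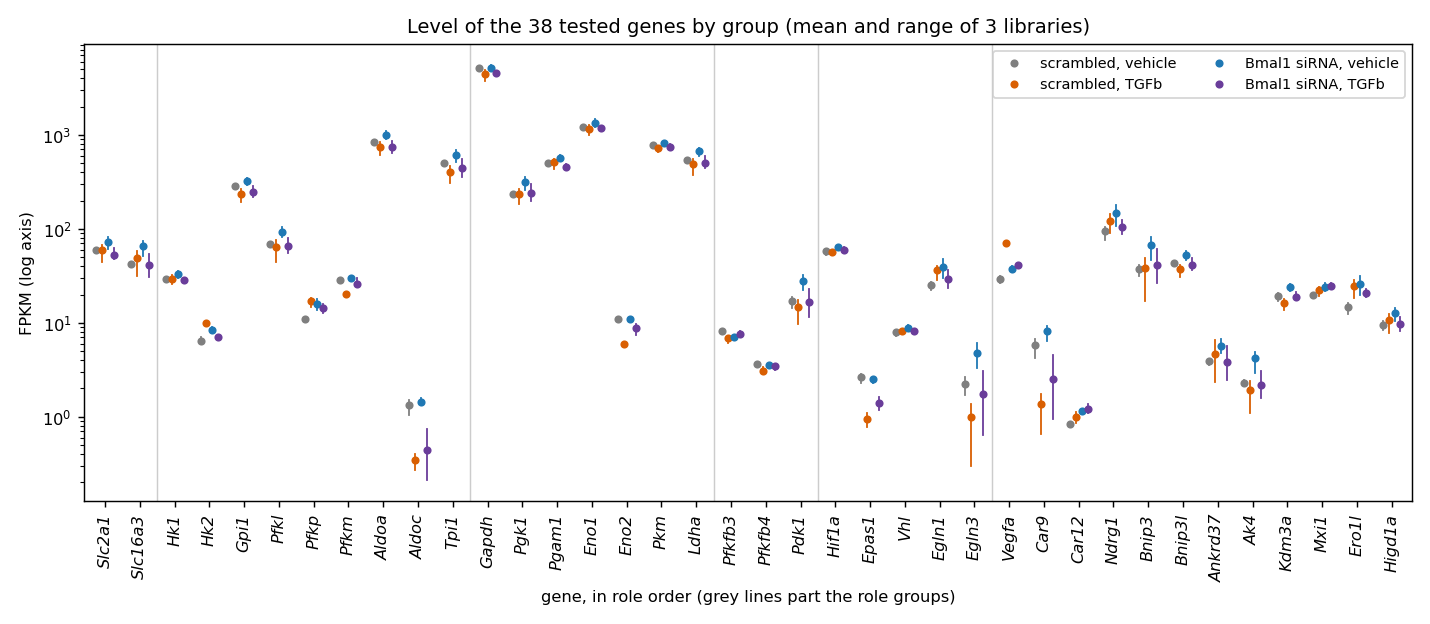
FPKM on a log axis (vertical) for each of the 38 tested genes in role order (horizontal), with the mean (point) and range (line) of the 3 libraries of each group. Gapdh lies near 5084 FPKM in the scrambled vehicle group and Aldoc near 1.33 FPKM; the widest ranges are in the TGFb groups, as for Bnip3, Egln3 and Car9.

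Promoter sequences are shown for 6 members as examples, to let the HIF and E-box cores be seen in place. Of these, Bnip3 was called in no comparison of the fit over all 12 libraries. Pfkp and Eno2, which were called, are not printed. The RefSeq table of promoters (build GRCm38.p6, 250 bases before to 50 after each start) matched 35 of the 40 genes with 56 windows. Slc2a3, Epas1, Ndrg1, Bnip3l and Ero1l were not matched. The letters ACGTG, the core of the hypoxia response element, were searched on both strands, so that CACGT on the printed strand also counts. The E-box CACGTG contains this core and was also counted apart. Capitals mark these matches in the 250 bases before the start, printed 5′ to 3′ on the strand of the gene.
Hk2, chr6:82774455-82774704, minus strand: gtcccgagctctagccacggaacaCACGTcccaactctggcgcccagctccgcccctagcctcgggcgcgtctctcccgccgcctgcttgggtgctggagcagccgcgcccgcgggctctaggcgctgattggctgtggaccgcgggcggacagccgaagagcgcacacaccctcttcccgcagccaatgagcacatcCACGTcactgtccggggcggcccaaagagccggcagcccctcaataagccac
Egln1, chr8:124949255-124949504, minus strand: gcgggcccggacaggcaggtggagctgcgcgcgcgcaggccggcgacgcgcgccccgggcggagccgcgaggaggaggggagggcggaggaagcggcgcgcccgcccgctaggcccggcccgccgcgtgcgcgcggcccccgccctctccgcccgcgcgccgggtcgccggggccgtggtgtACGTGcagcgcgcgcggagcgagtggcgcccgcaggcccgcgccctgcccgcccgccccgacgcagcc
Egln3, chr12:54203875-54204124, minus strand: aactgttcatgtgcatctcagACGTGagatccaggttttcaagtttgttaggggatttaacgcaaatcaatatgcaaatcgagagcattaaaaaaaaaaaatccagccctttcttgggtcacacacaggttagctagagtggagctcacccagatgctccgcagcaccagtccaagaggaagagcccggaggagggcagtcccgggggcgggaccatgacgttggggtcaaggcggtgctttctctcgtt
Car9, chr4:43506776-43507025, plus strand: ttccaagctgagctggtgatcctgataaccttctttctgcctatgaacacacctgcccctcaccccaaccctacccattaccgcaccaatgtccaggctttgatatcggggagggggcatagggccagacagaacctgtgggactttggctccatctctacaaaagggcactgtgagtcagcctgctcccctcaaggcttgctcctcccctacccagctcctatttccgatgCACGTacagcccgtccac
Bnip3, chr7:138909507-138909756, minus strand: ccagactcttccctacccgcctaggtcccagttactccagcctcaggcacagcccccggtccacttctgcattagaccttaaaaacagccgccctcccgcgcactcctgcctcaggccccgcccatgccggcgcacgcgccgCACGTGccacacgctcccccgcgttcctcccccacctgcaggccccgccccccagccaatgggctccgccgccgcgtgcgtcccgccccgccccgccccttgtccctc
Vegfa, chr17:46032378-46032627, minus strand: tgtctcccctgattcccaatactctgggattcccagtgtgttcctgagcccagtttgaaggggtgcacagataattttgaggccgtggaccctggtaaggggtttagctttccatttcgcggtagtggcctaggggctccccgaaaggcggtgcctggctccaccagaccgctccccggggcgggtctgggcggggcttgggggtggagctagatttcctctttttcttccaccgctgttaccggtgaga

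In these windows Hk2 had the core at 226 and 52 bases before the start (counted at its first letter), Egln1 at 68, Egln3 at 229 and Car9 at 18. Bnip3 had it inside an E-box at 108 bases, and the window of Vegfa printed here held no match, while its other window held 1. The windows of Pfkp and Eno2, which are not printed, held no match. At least 1 core lay in a window of 23 of the 35 matched genes (65.7%), against 21.8% of 27025 genes in the table and 29.8% of the 8939 of them that were tested for expression. Outside an E-box the core was found in 21 genes (60.0%), against 15.3% and 20.6%. By role, the matched genes with a core were 2 of 2 transporters, 5 of 9 genes of upper glycolysis, 5 of 7 of lower glycolysis, 1 of 3 flux regulators, 3 of 4 HIF pathway genes and 7 of 10 other hypoxia genes. The E-box was found in 6 genes (Ak4, Bnip3, Hif1a, Ldha, Pfkfb3 and Pfkm), 17.1% against 8.1% of all genes and 12.1% of those tested. Genes with several windows have more chances to hold a match. By window the core was in 48.2% of the members' windows, against 19.6% of all windows and 25.7% of those of tested genes. The E-box was in 10.7% of the members' windows, against 7.2% and 10.1%, so by window its share lay close to that of tested genes. A match in these letters is not a bound site, and genes were often placed in such lists because they are HIF targets.

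Within the groups, these genes moved together from library to library. Replicate 1 was the lowest library of its group for 23 of the 38 genes with scrambled siRNA and vehicle, 35 with scrambled siRNA and TGFb, 32 with Bmal1 siRNA and vehicle, and 32 with Bmal1 siRNA and TGFb. Over all 11208 tested genes the same library was lowest for 41.5%, 39.6%, 35% and 35.4% of genes. Conversely, replicate 2 of the Bmal1 siRNA with TGFb group was the highest for 35 of the 38, against 43.5% of all genes, and replicate 3 of the Bmal1 siRNA vehicle group for 32, against 28.5%. The median distance of the members from the group mean was -0.25 (log2) in replicate 1 of scrambled siRNA with TGFb and 0.21 in replicate 2 of Bmal1 siRNA with TGFb, where the median over all tested genes was 0.00 and 0.01. Mitophagy receptor Bnip3 spread the most widely among the abundant targets, at 16.9, 48.8 and 48.4 FPKM with scrambled siRNA and TGFb and at 26.4, 61.5 and 35.7 FPKM with Bmal1 siRNA and TGFb. The adaptor gene Ankrd37, at 2.32, 5 and 6.51 FPKM with scrambled siRNA and TGFb, showed the same low replicate 1, and its exons share 349 bases with the coding gene Lrp2bp. What sets these libraries apart is not given in the labels, and calls that change without the first libraries of all groups are named with each comparison.

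**Figure D2:**
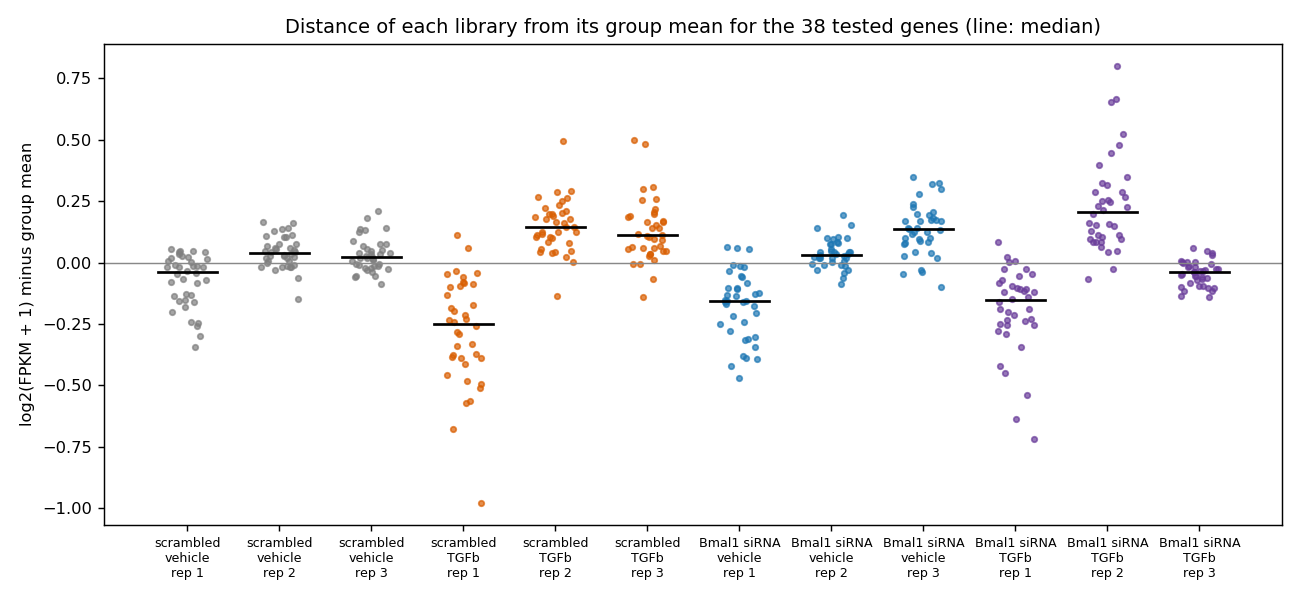
Distance of each library from its group mean, as log2(FPKM + 1) (vertical), for the 38 tested genes (points) in each of the 12 libraries (horizontal), with the median as a line. The points of the first TGFb library with scrambled siRNA lie mostly below 0, with a median of -0.25, and those of the second TGFb library with Bmal1 siRNA mostly above 0, with a median of 0.21.

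With scrambled siRNA, TGFb moved members in both directions: Vegfa, Ero1l, Hk2, Pfkp and Egln1 rose, and Car9, Epas1, Eno2, Aldoc, Pfkm, Pfkfb3 and Pfkfb4 fell. The comparison asks which of these genes respond to TGFb when BMAL1 is not targeted. The 5 that rose are 13.2% of the 38, where 16.4% of all tested genes rose, and the 7 that fell are 18.4%, where 29.1% of all fell. Both shares lie below the background, so the number of calls does not mark out these genes. The median change was -0.12 over the members and -0.05 over all tested genes. It was 0.04 without replicate 1 of the scrambled TGFb group. Among all called genes 36.1% were higher, and 49.1% or 47.5% after median-of-ratios or quantile scaling, where the member medians were -0.06 and -0.07.

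In upper glycolysis, 2 phosphofructokinase genes went opposite ways and 1 of the 2 hexokinase genes rose. Hk2 (chr6:82725025-82774454, minus strand), the inducible hexokinase that traps glucose in the cell, was at 5.98, 7.14 and 6.09 FPKM under vehicle and at 9.33, 10.3 and 10.2 FPKM under TGFb. Every TGFb library was above every vehicle library, a log2 change of 0.57 ± 0.073 (adjusted p = 3.55e-05), while Hk1 was at 28.1, 29.4 and 29.5 FPKM under vehicle and 25.6, 31.9 and 30.5 FPKM under TGFb, groups that overlapped. Platelet-type phosphofructokinase Pfkp went from 10.3, 11.3 and 11.3 to 14.9, 18.4 and 17.6 FPKM, again without overlap, by 0.58 ± 0.1 (adjusted p = 0.000438). Its exons share 748 bases with the coding gene Pitrm1, and the use of strand in counting is not given. Muscle-type Pfkm went the other way, from 28.4, 27.98 and 28.7 to 18.8, 20.3 and 20.97 FPKM, a change of -0.48 ± 0.071 (adjusted p = 0.000111) with no overlap. The main isoenzyme gene, Pfkl, overlapped between groups at 67.3, 71.7 and 67.8 FPKM under vehicle and 44.1, 76.6 and 72.2 FPKM under TGFb. Aldolase C, a minor aldolase in this line, was at 1.05, 1.51 and 1.43 FPKM under vehicle and 0.27, 0.4 and 0.38 FPKM under TGFb. The groups did not overlap, and the change was -0.78 ± 0.12 (adjusted p = 0.000167). Its TGFb libraries lie below 0.5 FPKM, so the change is understated by the added 1, and it reached the mean level tested only through the vehicle groups. Aldoa was at 855, 844 and 839.6 FPKM under vehicle and 604, 835 and 798 FPKM under TGFb (-0.20 ± 0.12, adjusted p = 0.219), and Gpi1 at 288, 285 and 288 FPKM under vehicle and 192, 263 and 254 FPKM under TGFb (-0.29 ± 0.12, adjusted p = 0.0536). In both genes every TGFb library was lower, replicate 1 by the widest margin, but neither was called. Triose phosphate isomerase Tpi1 was likewise lower without overlap and not called (-0.34 ± 0.17, adjusted p = 0.115).

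In lower glycolysis 1 of 7 genes was called. Eno2, the minor enolase known from neurons, was at 10.6, 11.04 and 11.3 FPKM under vehicle and 5.72, 6.12 and 5.99 FPKM under TGFb, with no overlap and a change of -0.79 ± 0.078 (adjusted p = 3.74e-06). The abundant genes Gapdh, Pgk1, Pgam1, Eno1, Pkm and Ldha changed by -0.20 to 0.03 and were not called, and all had overlapping groups. Pgam1, for example, was at 506, 493 and 497 FPKM under vehicle and 432, 554 and 546 FPKM under TGFb. Copies of Gapdh, Pgk1, Ldha and Aldoa elsewhere in the genome are nearly identical, so their levels are less certain. Of the flux regulators, Pfkfb3 makes the allosteric activator of phosphofructokinase. It was at 8.03, 8.29 and 8.05 FPKM under vehicle and 7.13, 7.26 and 6.09 FPKM under TGFb, not overlapping, a change of -0.22 ± 0.067 (adjusted p = 0.0147). The adjusted p was 0.0756 without replicate 3 of the scrambled TGFb group. Its relative Pfkfb4, at 3.75, 3.71 and 3.47 FPKM under vehicle and 2.99, 3.38 and 2.9 FPKM under TGFb, changed by -0.18 ± 0.07 (adjusted p = 0.0464), a call that did not hold when any of 9 libraries was left out (0.0255 to 0.153 over all 12). Pdk1, the kinase that closes the entry of pyruvate into mitochondria, was at 14.3, 18.4 and 18.9 FPKM under vehicle and 9.65, 17.6 and 16.6 FPKM under TGFb, with overlap and no call (adjusted p = 0.408).

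Of the HIF subunits, Hif1a did not differ beyond its spread, at 53.2, 61 and 61.6 FPKM under vehicle and 55, 58.5 and 56.5 FPKM under TGFb (-0.05 ± 0.066, adjusted p = 0.614). HIF-1 alpha is regulated largely as a protein, which these data do not measure. Epas1 (chr17:86753700-86833410, plus strand) was at 2.3, 2.74 and 2.84 FPKM and fell to 1.1, 0.77 and 0.98 FPKM. No TGFb library reached the lowest vehicle library, and the change was -0.90 ± 0.094 (adjusted p = 5.63e-06). Vhl, the recognition subunit of the ligase that marks HIF alpha for degradation, was at 7.16, 8.4 and 8.23 FPKM under vehicle and 7.67, 8.55 and 8.57 FPKM under TGFb, overlapping. The prolyl hydroxylase Egln1 (PHD2) was at 22.6, 27.4 and 26.2 FPKM under vehicle and 28.3, 40.2 and 40.4 FPKM under TGFb. The groups did not overlap, with a change of 0.48 ± 0.18 (adjusted p = 0.0448), but this call did not hold when any of 7 libraries was left out (0.013 to 0.146 over all 12). Without the first libraries of all groups the adjusted p was 0.00234. The related Egln3 (PHD3) was at 1.69, 2.35 and 2.62 FPKM under vehicle and 0.3, 1.31 and 1.37 FPKM under TGFb, all TGFb libraries below all vehicle libraries, but was not called (-0.73 ± 0.3, adjusted p = 0.0626).

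Among the other hypoxia genes, Vegfa and Car9, both textbook HIF targets, had the largest changes and opposite signs. Vegfa (chr17:46016993-46032369, minus strand), the gene for the angiogenic factor VEGF-A, was at 26.4, 31.1 and 31.1 FPKM under vehicle and 68.5, 71.4 and 74.1 FPKM under TGFb. Its TGFb mean was 142% higher, with a log2 change of 1.25 ± 0.069 (adjusted p = 2.88e-08). The endoplasmic oxidase Ero1l, which passes oxidizing equivalents to new disulfide bonds, went from 12.5, 16.4 and 14.9 to 18.6, 28.8 and 26.9 FPKM, without overlap, by 0.71 ± 0.17 (adjusted p = 0.00415). Car9 (chr4:43506966-43513729, plus strand), a membrane carbonic anhydrase, was at 4.27, 6.35 and 6.73 FPKM and 0.65, 1.69 and 1.75 FPKM. All TGFb libraries were below all vehicle libraries, the mean was lower by 76.4%, and the change was -1.54 ± 0.31 (adjusted p = 0.00131). Further genes of this group (Car12, Ndrg1, Bnip3, Bnip3l, Ankrd37, Ak4, Kdm3a, Mxi1 and Higd1a) changed by -0.23 to 0.36 and none was called. Among them Ak4 was at 2.26, 2.44 and 2.22 FPKM under vehicle and 1.09, 2.3 and 2.43 FPKM under TGFb and Kdm3a at 17.02, 20.7 and 19.9 FPKM under vehicle and 13.6, 17.8 and 17.6 FPKM under TGFb, both overlapping. Without the first libraries of all groups, Ndrg1 (0.42, adjusted p = 0.0077), Mxi1 (0.26, adjusted p = 0.0092) and Higd1a (0.36, adjusted p = 0.019) were called higher. In the same setting Kdm3a (-0.19, adjusted p = 0.0479) and Egln3 (-0.57, adjusted p = 0.0419) were called lower and Pfkfb4 was not called (adjusted p = 0.17).

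**Figure D3:**
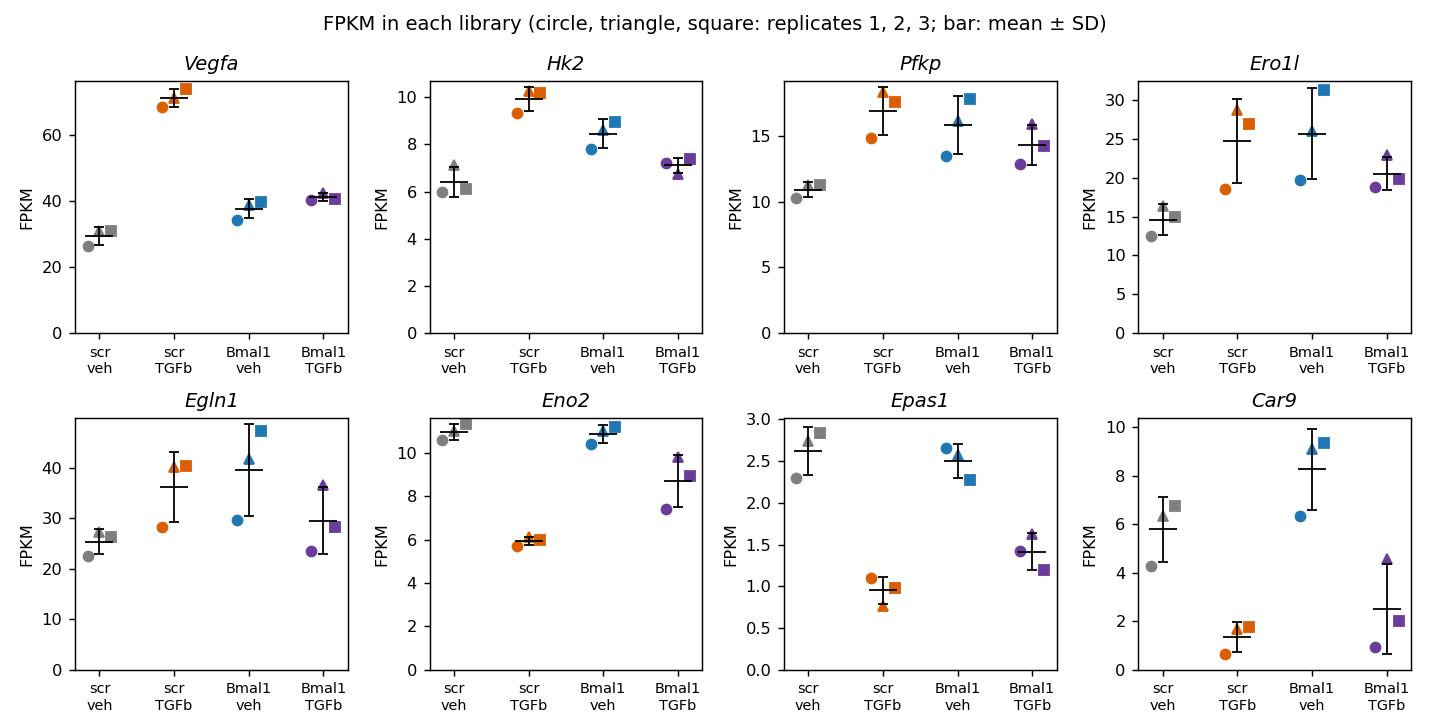
FPKM (vertical, from 0) of 8 genes in each library of the 4 groups (horizontal), with replicates 1, 2 and 3 as circle, triangle and square and bars for mean ± SD. Vegfa lies between 68.5 and 74.1 FPKM in the scrambled TGFb libraries and between 40.5 and 42.6 FPKM in the Bmal1 siRNA TGFb libraries.

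With Bmal1 siRNA, no member rose under TGFb and 11 fell: Car9, Egln3, Aldoc, Pdk1, Ak4, Epas1, Aldoa, Gpi1, Kdm3a, Pgam1 and Eno2. The 11 are 28.9% of the 38, where 10.1% of all tested genes fell, and the count of 0 stands beside 8.9% of all genes that rose. An unadjusted p under 0.05, in either direction, was reached by 24 of 38, beside 3665 of all 11208 tested genes. No other setting gave a rise among the members. The median change was -0.34 over the members and 0.00 over all genes, and 4 of the 38 changes were positive, against 50.9% of all genes. The number called depended on single libraries. It was 3 without replicate 2 or 3 of the vehicle group or replicate 1 of the TGFb group, and 4 without replicate 3 of the TGFb group. Of all 11197 to 11211 tested genes 730, 767, 742 and 680 fell in these settings, in that order. Where 3 members fell, their share was close to that of all genes. The number was 20 without replicate 1 of the vehicle group or of the scrambled TGFb group, and 23 without replicate 2 of the TGFb group. In that order 972, 1179 and 1727 of all genes fell. Without the first libraries of all groups 24 fell (773 of all 11219 genes), Eno2 no longer among them (adjusted p = 0.0507). The 14 that joined were Slc2a1, Slc16a3, Hk1, Hk2, Pfkl, Tpi1, Pgk1, Eno1, Ldha, Egln1, Ndrg1, Bnip3, Bnip3l and Ero1l. The median lay between -0.46 and -0.27 in all of these.

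Car9 was at 6.35, 9.1 and 9.34 FPKM under vehicle and 0.94, 4.56 and 2.01 FPKM under TGFb with Bmal1 siRNA. Replicate 2 of the TGFb group was far above the other two, yet no TGFb library reached the vehicle group, and the change was -1.52 ± 0.31 (adjusted p = 0.00453). Egln3 followed the same order of libraries, at 3.27, 4.78 and 6.13 FPKM under vehicle and 0.64, 3.04 and 1.5 FPKM under TGFb, with a change of -1.14 ± 0.3 (adjusted p = 0.0186). Ak4, a mitochondrial adenylate kinase, was at 2.93, 4.89 and 4.89 FPKM under vehicle and 1.59, 3.07 and 1.8 FPKM under TGFb. Here replicate 2 under TGFb lay above replicate 1 under vehicle, so the groups overlapped (-0.74 ± 0.21, adjusted p = 0.0259). Pdk1 overlapped in the same way, at 22.1, 29.1 and 32.4 FPKM under vehicle and 11.4, 22.6 and 15.6 FPKM under TGFb (-0.75 ± 0.24, adjusted p = 0.0418). Kdm3a, a histone demethylase induced by HIF, was at 22.1, 25.6 and 24.9 FPKM under vehicle and 17.3, 21.1 and 18.4 FPKM under TGFb without overlap (-0.34 ± 0.1, adjusted p = 0.0383). Epas1 fell from 2.66, 2.58 and 2.27 to 1.42, 1.63 and 1.19 FPKM, all TGFb libraries below all vehicle libraries (-0.54 ± 0.094, adjusted p = 0.00166). Hif1a, at 63.7, 66.99 and 62.7 FPKM under vehicle and 59.8, 64.7 and 55.04 FPKM under TGFb, overlapped and was not called (-0.11 ± 0.066, adjusted p = 0.284). Vhl, at 8.15, 9.02 and 9.49 FPKM under vehicle and 7.86, 8.68 and 7.92 FPKM under TGFb, also overlapped. Of these, Car9 and Epas1 were called whichever library was left out, whereas Egln3, Ak4, Pdk1 and Kdm3a were not called without replicate 2 or 3 of the vehicle group or replicate 1 or 3 of the TGFb group (adjusted p up to 0.0864, 0.106, 0.173 and 0.142).

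In glycolysis, Aldoa, the main aldolase, was at 899, 1016 and 1102 FPKM under vehicle and 639.7, 869 and 731 FPKM under TGFb, where all TGFb libraries were lower (-0.44 ± 0.12, adjusted p = 0.0269). Aldoc was at 1.33, 1.35 and 1.59 FPKM under vehicle and 0.21, 0.74 and 0.38 FPKM under TGFb, with the TGFb libraries lower again (-0.76 ± 0.12, adjusted p = 0.000984). Glucose-6-phosphate isomerase Gpi1 went from 292, 325 and 348 to 217, 287 and 243 FPKM (-0.38 ± 0.12, adjusted p = 0.0379), and phosphoglycerate mutase Pgam1 from 528, 570.1 and 609 to 422, 489 and 456 FPKM (-0.32 ± 0.088, adjusted p = 0.0224), both without overlap. Eno2, at 10.4, 11 and 11.2 FPKM under vehicle and 7.4, 9.81 and 8.93 FPKM under TGFb, also fell without overlap (-0.30 ± 0.078, adjusted p = 0.0187). The call of Aldoc, which again reached the level tested only through its vehicle libraries, held whichever library was left out. For Aldoa, Gpi1, Pgam1 and Eno2 the adjusted p rose as far as 0.117, 0.155, 0.101 and 0.0738 without single Bmal1 siRNA libraries. The genes that TGFb raised with scrambled siRNA were not called here: Hk2 was at 7.8, 8.62 and 8.97 FPKM under vehicle and 7.23, 6.74 and 7.37 FPKM under TGFb (-0.22 ± 0.073, adjusted p = 0.0512) and Pfkp at 13.5, 16.2 and 17.9 FPKM under vehicle and 12.9, 15.9 and 14.3 FPKM under TGFb (-0.13 ± 0.1, adjusted p = 0.403). Vegfa was at 34.4, 38.9 and 39.9 FPKM under vehicle and 40.5, 42.6 and 40.9 FPKM under TGFb, TGFb libraries all higher but by only 0.13 ± 0.069 (adjusted p = 0.209). Ero1l, at 19.7, 26.1 and 31.3 FPKM under vehicle and 18.8, 22.9 and 19.9 FPKM under TGFb, and Egln1, at 29.6, 41.7 and 47.4 FPKM under vehicle and 23.6, 36.6 and 28.4 FPKM under TGFb, overlapped. Pfkm, at 29.6, 29.6 and 30.2 FPKM under vehicle and 24.1, 29.9 and 24.2 FPKM under TGFb, and Pfkfb3, at 7.47, 6.97 and 6.97 FPKM under vehicle and 8.09, 7.44 and 7.26 FPKM under TGFb, overlapped as well, as did Pfkfb4 at 3.74, 3.54 and 3.42 FPKM under vehicle and 3.12, 3.59 and 3.62 FPKM under TGFb.

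Under vehicle, Bmal1 siRNA went with higher levels of most of these genes, but only Hk2 and Vegfa were called. In 28 of the 38 genes (73.7%) all Bmal1 siRNA libraries were above all scrambled siRNA libraries, where 16.7% of all tested genes showed this. The reverse held for 1 gene, Pfkfb3 (2.63%), against 15.1% of all genes. The median change was 0.28 over the members and 0.01 over all genes, and 34 of 38 changes were positive, against 52.5% of all genes. The median was 0.39 for the 17 tested genes of the HIF and hypoxia group and 0.20 for the 21 of glycolysis and transport. Over all 38 it lay between 0.21 and 0.38 whichever library was left out and was 0.33 without the first libraries of all groups. By the test across all genes, 2 members rose (5.26%), where 0.294% of all genes rose, and 0 fell, where 0.366% of all fell. With no fall called, an unadjusted p under 0.05 in either direction was found for 20 of the 38, beside 2433 of all 11208 tested genes. No setting gave a fall among the members. Of the 12 tested hypoxia response genes outside the sensing machinery, all 12 changes were positive, 11 without overlap, with a median of 0.41. The Bmal1 siRNA vehicle libraries used here are also the baseline of the TGFb comparison above. The members moved together across libraries, so they are not 38 separate observations.

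The calls of Hk2 and Vegfa lay close to the threshold. Hk2 rose by 0.36 ± 0.073 (adjusted p = 0.0492), which rose above 0.05 when any of 8 libraries was left out (0.029 to 0.252 over all 12). Vegfa rose by 0.34 ± 0.069 (adjusted p = 0.0457), and this call was lost for 9 of the 12 libraries (0.0274 to 0.252). The count of 2 became 0 without scrambled vehicle replicate 1 or 3, scrambled TGFb replicate 2 or 3, Bmal1 siRNA vehicle replicate 2 or 3, or Bmal1 siRNA TGFb replicate 3. It became 1 without scrambled vehicle replicate 2 (Hk2) or Bmal1 siRNA TGFb replicate 1 (Pfkp, with Hk2 and Vegfa both lost), and 4 without the first library of the scrambled TGFb or Bmal1 siRNA vehicle group or the second of Bmal1 siRNA with TGFb. Over all tested genes the settings that gave 4 had 39, 45 and 204 higher, in that order. Without the first libraries of all groups 5 members were called (23 higher over all tested genes): Vegfa, Pfkp, Ero1l, Ndrg1 and Egln1, but not Hk2 (adjusted p = 0.0822). Next to the threshold, without overlap but not called, were Pfkp (0.49 ± 0.1, adjusted p = 0.0508) and Ero1l (0.76 ± 0.17, adjusted p = 0.0581). Among the uncalled genes with larger changes and wider errors were Egln3 (0.81 ± 0.3, adjusted p = 0.155), Bnip3 (0.79 ± 0.37, adjusted p = 0.234), Pdk1 (0.66 ± 0.24), Ak4 (0.64 ± 0.21), Ndrg1 (0.61 ± 0.21), Egln1 (0.60 ± 0.18) and Slc16a3 (0.58 ± 0.23). Bnip3 was at 31.2, 41.1 and 41.2 FPKM with scrambled and 46.97, 72.9 and 81.97 FPKM with Bmal1 siRNA, and Ndrg1, a stress-responsive gene, at 75.4, 104 and 102 FPKM with scrambled and 106, 153 and 179 FPKM with Bmal1 siRNA. In both genes replicate 1 was the lowest of each group. Hif1a changed by 0.14 ± 0.066 (adjusted p = 0.242) and Epas1 by -0.05 ± 0.094 (adjusted p = 0.785). In lower glycolysis Pgk1 was at 233, 241 and 231 FPKM with scrambled and 260.2, 337 and 358 FPKM with Bmal1 siRNA and Ldha at 552, 529 and 524 FPKM with scrambled and 597, 679.7 and 724 FPKM with Bmal1 siRNA, neither overlapping and neither called. By contrast Gapdh changed by 0.01 ± 0.1 and Eno2 by -0.02 ± 0.078, with overlapping groups.

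**Figure D4:**
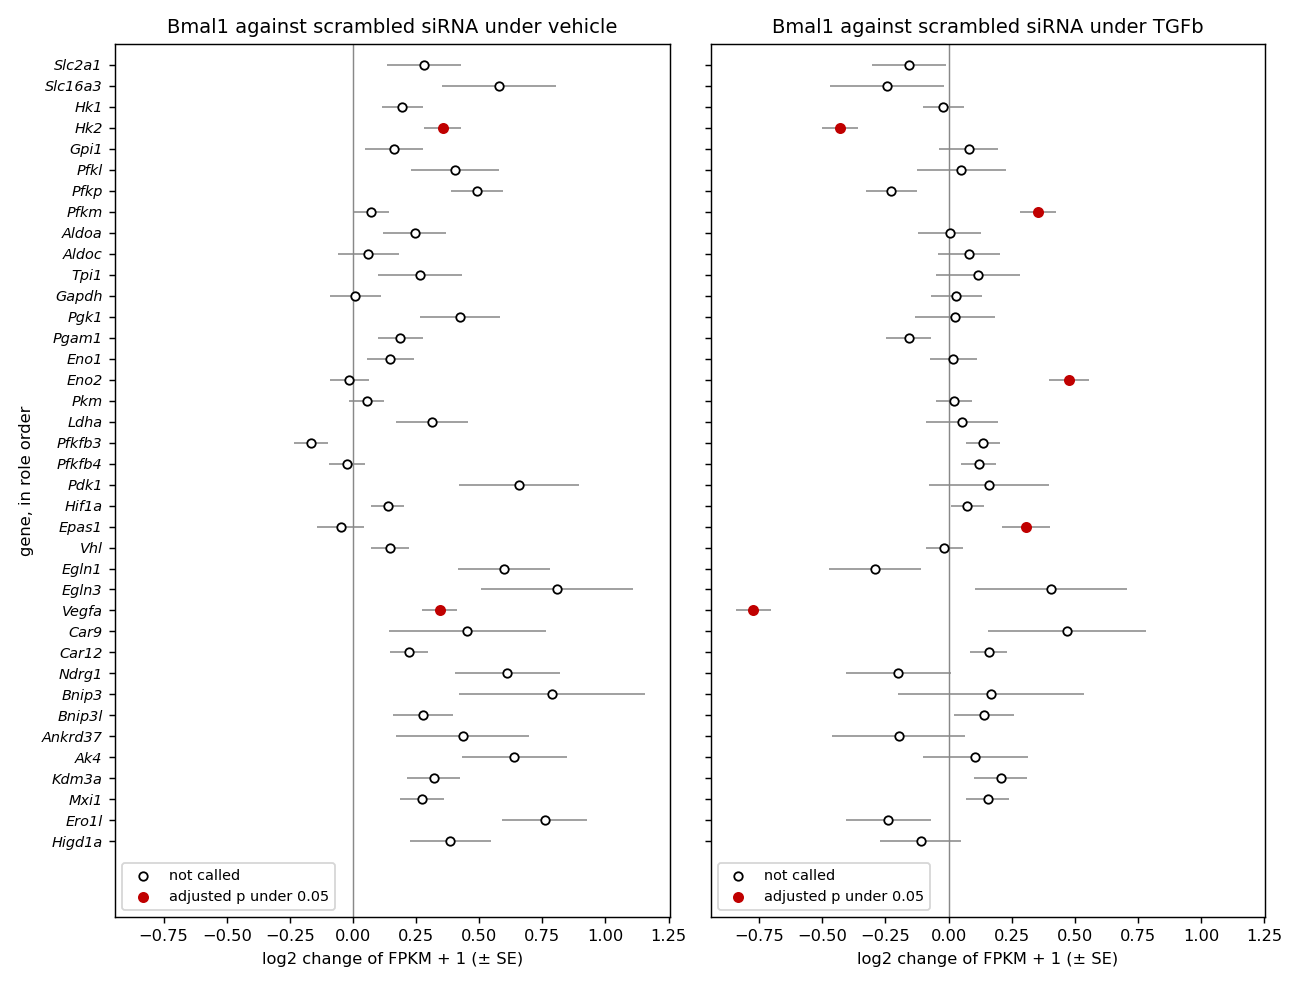
Log2 change of FPKM + 1 with its SE (horizontal) for Bmal1 against scrambled siRNA in each of the 38 tested genes (vertical, role order), under vehicle (left) and TGFb (right), with called genes filled in red. Under vehicle 34 of 38 points lie right of 0 and 2 are called; under TGFb 3 called points lie right of 0 and 2 left of it.

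Under TGFb, Bmal1 siRNA left Vegfa and Hk2 lower and Eno2, Pfkm and Epas1 higher than scrambled siRNA. The 3 higher are 7.89% of the 38, where 16% of all tested genes were higher. The 2 lower are 5.26%, where 7.16% of all were lower, so neither count exceeds the background. Vegfa differed by -0.77 ± 0.069 (adjusted p = 9.35e-06), its highest Bmal1 siRNA library (42.6 FPKM) lying below the lowest scrambled one (68.5 FPKM). The difference in Hk2 was -0.43 ± 0.073 (adjusted p = 0.00124), again with no overlap. Eno2 was higher by 0.48 ± 0.078 (adjusted p = 0.001) and Pfkm by 0.36 ± 0.071 (adjusted p = 0.00358). Epas1 was higher by 0.31 ± 0.094 (adjusted p = 0.0321), but was not called without scrambled TGFb replicate 2 or 3 or Bmal1 siRNA TGFb replicate 1 or 2 (0.0234 to 0.116 over all 12), nor after median-of-ratios or quantile scaling. The other 4 calls held under every setting tried, and Ero1l, Pfkp and Pgam1 were also lower without the first libraries of all groups (adjusted p = 0.0264, 0.0382 and 0.0196). The median change of the members was 0.05, beside 0.06 over all genes. It was -0.01 after median-of-ratios scaling and -0.09 without scrambled TGFb replicate 1, so it has no stable sign. Of all called genes 69.1% were higher, and 46.4% or 53.3% after median-of-ratios or quantile scaling. Transporter and lower glycolysis genes other than Eno2 changed by -0.24 to 0.05 and none was called. Slc2a1 was at 44.6, 67.5 and 67.1 FPKM with scrambled and 47.4, 62.7 and 48.9 FPKM with Bmal1 siRNA. Slc16a3 was at 31.4, 56.8 and 58.5 FPKM with scrambled and 31, 54.4 and 36.9 FPKM with Bmal1 siRNA. Both genes overlapped between the groups, and replicate 1 was the lowest in each. With Bmal1 siRNA, however, replicate 3 lay closer to replicate 1 than to replicate 2.

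The interaction, the TGFb effect with Bmal1 siRNA minus that with scrambled siRNA, was negative for Vegfa, Ero1l, Egln1, Hk2 and Pfkp and positive for Eno2 and Pfkfb3. The first 5 are the members that TGFb raised with scrambled siRNA, and this overlap uses the same libraries. The 5 lower are 13.2% of the 38, where 5.52% of all tested genes were lower, and the 2 higher are 5.26%, where 8.86% of all were higher. Of all genes called 61.6% were higher, and 42.2% or 49.4% after median-of-ratios or quantile scaling. Vegfa had the largest value, -1.12 ± 0.098 (adjusted p = 2.97e-05): TGFb changed it by 1.25 with scrambled and 0.13 with Bmal1 siRNA. Ero1l had -0.997 ± 0.24 (adjusted p = 0.0155), from 0.71 and -0.29. For Hk2 it was -0.79 ± 0.1 (adjusted p = 0.000382), from 0.57 and -0.22, and for Pfkp -0.72 ± 0.14 (adjusted p = 0.00656), from 0.58 and -0.13. In each of these genes the vehicle level with Bmal1 siRNA was already above that with scrambled siRNA, so the interaction holds a higher start. For Vegfa and Hk2 it also holds a different end, as their TGFb groups did not overlap between siRNAs. Under TGFb, Ero1l (-0.24 ± 0.17, adjusted p = 0.332) and Pfkp (-0.23 ± 0.1, adjusted p = 0.127) overlapped between siRNAs and were not called. Eno2 had 0.49 ± 0.11 (adjusted p = 0.0113), its fall being -0.79 with scrambled and -0.30 with Bmal1 siRNA. These calls held whichever library was left out. Those of Egln1 (-0.89 ± 0.26, adjusted p = 0.0362, 0.0121 to 0.09 over the 12) and Pfkfb3 (0.30 ± 0.095, adjusted p = 0.0486, 0.0428 to 0.113) did not hold for 8 and 11 libraries. The number lower was 12 without scrambled TGFb replicate 1, and 4 to 7 without any other single library. It was 15 without the first libraries of all groups (joined by Slc2a1, Slc16a3, Hk1, Pfkl, Pgk1, Pgam1, Ldha, Ndrg1, Ak4 and Higd1a). Over all tested genes 628 were lower without scrambled TGFb replicate 1 and 607 without the first libraries, beside 619 with all libraries. Car9 and Aldoc fell with either siRNA, with interactions of 0.02 ± 0.44 and 0.02 ± 0.17 that were not called (adjusted p = 0.984 and 0.955). Over the members the median interaction was -0.23, beside 0.06 over all genes, and 30 of 38 were negative, against 4222 of all 11208 genes. After median-of-ratios or quantile scaling the member median was -0.29 or -0.28, beside 0.003 or 0.020 over all genes. The member median was -0.14 without Bmal1 siRNA TGFb replicate 1, -0.36 without scrambled TGFb replicate 1 and -0.37 without Bmal1 siRNA TGFb replicate 2.

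**Figure D5:**
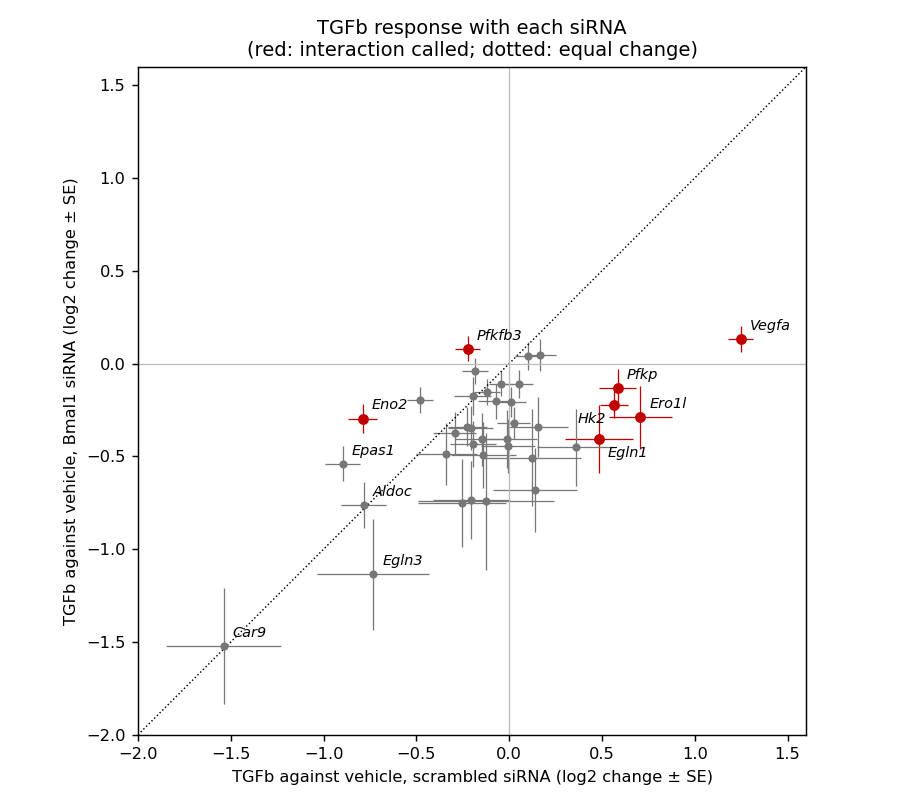
Log2 change under TGFb with scrambled siRNA (horizontal) against that with Bmal1 siRNA (vertical), each ± SE, for the 38 tested genes; the dotted line marks equal change and red points have a called interaction. Vegfa lies far right at 1.25 and near 0 vertically at 0.13, while Car9 and Aldoc lie close to the dotted line.

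Other genes of these routes, from lists that leave out the members, did not all follow them. Of 29 tested genes of glycolysis and pyruvate handling, 4 rose and 14 fell under TGFb with scrambled siRNA (13.8% and 48.3%, where 16.4% of all tested genes rose and 29.1% fell). Galm, which interconverts glucose anomers, changed by -0.83 and the lactate and pyruvate carrier Slc16a1 (MCT1) by -0.80, while the ADP-dependent glucokinase Adpgk rose by 0.56. With Bmal1 siRNA 4 rose and 6 fell (13.8% and 20.7%, against 8.9% and 10.1% of all), with Slc16a1 at -0.54 and Eno3 at 0.42. For Bmal1 against scrambled siRNA none was called under vehicle, where 4 of the 29 had an unadjusted p under 0.05 (2433 of all 11208 genes). Under TGFb the same comparison gave 7 higher and 1 lower (24.1% and 3.45%, against 16% and 7.16% of all), with Pdk2 at 0.48 and Slc16a1 at 0.37. Their median under vehicle was 0.00, beside 0.28 for the members. By the interaction 5 were called higher and 0 lower (17.2% and 0%, against 8.86% and 5.52% of all). An unadjusted p under 0.05, in either direction, was reached by 9 of the 29, beside 3304 of all 11208 tested genes, a similar share. Their median interaction was 0.09, beside -0.23 for the members.

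Of 15 genes of the pentose phosphate route and glycogen, 0 rose and 8 fell under TGFb with scrambled siRNA (0% and 53.3%). Over all tested genes 16.4% rose and 29.1% fell. The glycogen-targeting subunit Ppp1r3c changed by -0.81 and Ugp2 by -0.41. The 8 that fell were also the only ones of the 15 with an unadjusted p under 0.05, which 5867 of all 11208 tested genes reached. With Bmal1 siRNA 1 rose and 4 fell (6.67% and 26.7%, against 8.9% and 10.1% of all). By the interaction 0 were higher and 1 lower (0% and 6.67%, against 8.86% and 5.52% of all), with a median of 0.13. Glycogen synthase Gys1 had a called interaction of -0.55, being at 46.1, 48.8 and 49.9 FPKM under vehicle and 46.4, 62.7 and 59.2 FPKM under TGFb with scrambled and 53.6, 65.3 and 70.98 FPKM under vehicle and 44.97, 53.5 and 49.5 FPKM under TGFb with Bmal1 siRNA. Of 16 further regulators of HIF, 2 rose and 6 fell under TGFb with scrambled siRNA (12.5% and 37.5%, against 16.4% and 29.1% of all). The HIF competitor Cited2 changed by -0.66 and the ubiquitin ligase Siah2 by 0.35. For Bmal1 against scrambled siRNA under vehicle none of the 16 was called (3 at an unadjusted p under 0.05, beside 2433 of all 11208 tested genes). There 12 changes were negative and 4 positive, where 52.5% of all genes were positive. The median was -0.04, beside 0.28 for the members. Cited2 was at 142, 131 and 138 FPKM under vehicle and 88.95, 83.7 and 86.2 FPKM under TGFb with scrambled siRNA and at 122, 109 and 116 FPKM under vehicle and 129, 106 and 122 FPKM under TGFb with Bmal1 siRNA. With Bmal1 siRNA its change under TGFb was 0.04 (adjusted p = 0.703), and the interaction was 0.70 (adjusted p = 0.00044). By the interaction 3 of these 16 regulators were higher and 1 lower (18.8% and 6.25%, against 8.86% and 5.52% of all). Their median interaction was 0.11, beside -0.23 for the members.

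Among 52 further hypoxia-responsive genes, 14 rose and 16 fell under TGFb with scrambled siRNA (26.9% and 30.8%, against 16.4% and 29.1% of all tested genes). With Bmal1 siRNA 5 rose and 13 fell under TGFb (9.62% and 25%, against 8.9% and 10.1% of all). For Bmal1 against scrambled siRNA 1 (1.92%, against 0.294% of all) rose under vehicle, the collagen cross-linking enzyme Lox. It was at 157, 189 and 184 against 233, 251 and 252 FPKM (0.48, adjusted p = 0.0253). In this comparison 41 of 52 changes were positive, against 52.5% of all genes, with a median of 0.14. Under TGFb 10 were higher and 10 lower (19.2% each, against 16% and 7.16% of all genes), among them the nucleotidase Nt5e (-1.65). By the interaction 13 were called lower and 6 higher (25% and 11.5%, against 5.52% and 8.86% of all genes). Bhlhe40, a clock repressor and HIF target, had the largest value in this list, -1.78 (adjusted p = 0.000148). It was at 15.7, 21 and 20.3 FPKM under vehicle and 45.5, 55.9 and 55.9 FPKM under TGFb with scrambled siRNA, and at 22.2, 29.4 and 32.9 FPKM under vehicle and 20.1, 24.9 and 19.9 FPKM under TGFb with Bmal1 siRNA. Like Vegfa and Hk2, it was higher with Bmal1 siRNA under vehicle and lower under TGFb in every library.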

How the data were processed

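The authors deposited 1 table of FPKM per gene and library (unit per the file headers), with 16290 lines. Of these, 555 carried no gene identifier (1.304% to 1.464% of the summed FPKM) and 15 repeated one, and both kinds were left out. FPKM sums were 445472 to 483957 per library. Read depth is unknown, so no counting intervals are given. The submitters' processing notes name the build mm10 and the tools DESeq2, RSEM, Bowtie2 2.2.5 and HISAT2 2.0.4, without saying what each did. Per the labels, samples below an RNA integrity number of 6.0 were dropped and the RNA kit depended on the amount, but the kit of each library is not given.

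Tests used limma 3.58.1 in R 4.3.3 on log2(FPKM + 1), with a pseudocount of 1, for genes whose mean level reached 0.5 FPKM. The model had 1 mean per group, a mean-variance trend, all 12 libraries and 8 residual degrees of freedom. Contrasts were two-sided, with Benjamini-Hochberg adjustment. Fold changes on this scale understate the change of low genes. The script was tested on simulated data. The members and lists were chosen with earlier results of these data known. Library values are given for members called in any contrast (at most 4 per role and contrast, largest change first) and for all HIF subunits and oxygen sensors. From each other list, at most 4 called genes per contrast are named, largest change first, where the higher group averaged 1 FPKM or more. Library values of further members (Hk1, Pfkl, Pgk1, Ldha, Slc2a1, Slc16a3, Bnip3, Ndrg1 and Ankrd37) were chosen after they were seen. Comparisons that share a group share its libraries. Gene positions are from the GENCODE M21 annotation of mm10.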

Additional observations from a re-analysis of the deposited data

Results flagged for a closer look

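The change under TGFb differed between the 2 siRNAs, by the interaction test of limma with adjusted p under 0.05, for 7 genes. Its value (log2) was -1.12 for Vegfa, -0.997 for Ero1l, -0.89 for Egln1, -0.79 for Hk2 and -0.72 for Pfkp. It was 0.49 for Eno2 and 0.30 for Pfkfb3. Without the first libraries of all groups the interaction was -1.12 for Vegfa (adjusted p = 0.000109), -1.20 for Ero1l (0.0014), -0.85 for Hk2 (0.00268) and 0.57 for Eno2 (0.00559). That of Pfkfb3 was then not called (adjusted p = 0.0938).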

How the results depend on the processing

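No value changed sign with a call. Of the 37 calls of members over the 5 contrasts, 21 held under every setting in which they were run (the interaction has no fit with only the groups compared, and Aldoc and Epas1 do not reach a mean of 2 FPKM), and leaving out 1 library lost 2 to 14 of them. Leaving out 1 library gave 4 to 7 members higher and 6 to 9 lower under TGFb with scrambled siRNA (5 and 7 with all libraries), and 3 to 23 lower with Bmal1 siRNA (11). For Bmal1 against scrambled siRNA it gave 0 to 4 higher under vehicle (2) and 2 to 3 in either direction under TGFb (3 higher, 2 lower). For the interaction it gave 1 to 2 higher (2) and 4 to 12 lower (5). Over all tested genes it gave 1561 to 1990 higher and 2815 to 3478 lower under TGFb with scrambled siRNA. With Bmal1 siRNA it gave 680 to 1727 lower under TGFb. For Bmal1 against scrambled siRNA under vehicle 0 to 204 of all genes were higher, and for the interaction 426 to 678 were lower.

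Other settings moved counts as follows. Brackets give the count over all genes tested in that setting, of 11187 to 11219 genes, or 15720 with no filter. Under TGFb with scrambled siRNA, 8 (1608) rose without the first libraries, and 12 (3233) fell without both second TGFb libraries. With Bmal1 siRNA, 6 (1187) fell with no filter on low values and 17 (1141) after quantile normalization. With array weights 31 (2360) fell, where the main fit had 11 (1130). It was 25 (1737) without both second TGFb libraries and 24 (773) without the first libraries. Under vehicle, Bmal1 siRNA gave 1 higher with a pseudocount of 5 (27) or quantile normalization (34), and 0 with no filter (1) or median-of-ratios scaling (25). It gave 22 (659) with array weights, where the main fit had 2 (33), and 13 (120) when the fit held only these 2 groups. It gave 5 (23) without the first libraries and 4 (182) without both second TGFb libraries. Under TGFb, 9 (1126) were lower with array weights and 5 (836) without the first libraries. The interaction was higher in 1 with no filter (808), median-of-ratios (577) or quantile scaling (702), or without the first libraries (754). It was lower in 19 (1061) with array weights and 15 (607) without the first libraries. Leaving out the first libraries was added after seeing the data. The cause of these moves was not tested. The depth behind each FPKM is unknown, so the precision of low genes such as Aldoc, Egln3 and Epas1 rests on the 3 libraries alone.

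Replicate numbers do not pair the samples in the labels. Over all tested genes, deviations of same-numbered libraries in the 4 pairs of groups compared correlated from -0.149 to 0.475. Over the 38 members, which move together, those of the vehicle groups correlated at 0.492, 0.359 and 0.293. Vehicle libraries of different number correlated from -0.49 to 0.438 over the members. In the other pairs of groups compared, same-numbered libraries correlated from -0.407 to 0.804. With a replicate block 11 members fell under TGFb with scrambled siRNA (3414 of all 11208 tested genes) and 24 with Bmal1 siRNA (1340). Bmal1 siRNA then gave 14 higher under vehicle (244 of all genes) and 4 lower under TGFb (909), and 8 were lower in the interaction (698). The block lost 0 of the 37 calls and added 37. Each library correlated best with its own number in 1 of 3 pairs for TGFb with scrambled siRNA and in 2 of 3 pairs for each of the other comparisons.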
